A study of Mus musculus with 6 samples.

Results

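The genes described here are 42 members of the transforming growth factor beta (TGF-beta), bone morphogenetic protein (BMP) and activin pathway, out of 53801 genes in the count table. They were taken by gene symbol and cover the secreted ligands, the proteins that store or trap them, the receptors, the Smad proteins and the Id factors. RNA came from 6 cultures of the stromal vascular fraction (SVF), a mixture that holds adipocyte progenitors along with other cells of fat that are not adipocytes, isolated from mouse inguinal white fat and sequenced on day 4 of adipogenic induction in vitro. Of these, 3 libraries were from mice labelled Ythdf1 knockout and 3 from mice labelled wild type, which the series calls biological replicates. Ythdf1 encodes a cytoplasmic protein that binds messenger RNA carrying the m6A methyl mark. The part of Ythdf1 that is removed, the mouse strain, age and number of animals per culture were not stated, and no other agent or allele is named for either genotype. Libraries are called by genotype and replicate number, and 3 values in a row are replicates 1, 2 and 3. Levels are in CPM, counts relative to the scaled library total, and are given as mean ± SD with n = 3 per genotype. Each log2 fold change compares knockout with wild type and carries its standard error (SE), and a gene rose or fell where its adjusted p in edgeR's quasi-likelihood test was under 0.05.

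Ligands of this family are secreted as dimers. TGF-beta is held latent in the matrix by binding proteins, and activins and BMPs are held back by soluble traps such as follistatin, gremlin and noggin. A free ligand joins a type II and a type I receptor, both of which are kinases; TGF-beta and activin receptors act mainly through Smad2 and Smad3, and BMP receptors through Smad1, Smad5 and Smad9, each with the shared Smad4. Smad6 and Smad7 are induced inhibitors, and the Id genes are classic BMP targets. In fat progenitors TGF-beta and activin are known for holding back adipocyte formation and favouring matrix production, whereas BMPs favour commitment to the adipocyte fate.

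Total counts per library ran from 16619605 to 20089138, so a floor of 3 counts lay at 0.146 to 0.185 CPM, covering counting error only. Ythdf1 itself was at 43.8 ± 1.15 CPM in knockout libraries and 61.8 ± 1.34 CPM in wild type, lower in each knockout library but far from absent, so this whole-gene count checks the labels only in part. All 9 adipocyte markers examined were detected in both genotypes and rose, and their summed level was 15915 to 21546 CPM in knockout libraries and 3744 to 5699 CPM in wild type. All 5 myofibroblast and smooth muscle markers fell, from a summed 621 to 938 CPM in wild type to 92.7 to 114 CPM in knockout. Of 9 macrophage markers, 7 rose, with sums of 282, 284 and 761 CPM in knockout replicates 1, 2 and 3 and 88.8 to 161 CPM in wild type. Of 5 lymphocyte markers, Cd3d had no count and the 5 summed to at most 0.457 CPM. Of 8 fibroblast or progenitor markers, 5 fell and none rose, with sums of 4183 to 4318 CPM against 4675 to 4743 CPM in wild type, and of 5 epithelial markers 4 fell. Mitochondrial transcripts took 2.29% to 2.48% of counts in knockout and 1.53% to 1.60% in wild type. Pericyte marker sums were 92.3 to 119 CPM in knockout and 50.2 to 64.5 CPM in wild type. Of the 4 pericyte markers 1 rose and 1 fell. Schwann sums were 2.92 to 4.26 against 1.02 to 1.83 CPM, and erythroid sums 0.398 to 0.585 against 0.800 to 1.41 CPM. The adipocyte, myofibroblast, macrophage, fibroblast, epithelial, pericyte, Schwann and erythroid sums and the mitochondrial share moved with genotype together with the genes described here. Their part in those results was not tested. The lymphocyte, endothelial and mesothelial sums overlapped.

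Most of the pathway was lower in the knockout cultures. Of the 42 genes, 40 had enough counts to test; 28 passed, against 44.3% of all 14816 genes tested. Of these 24 fell and 4 rose, where 21.7% of all genes tested fell and 22.6% rose, and 12 did not pass. The same shares over all genes tested stand beside the counts by role below. The 4 that rose were the activin receptor gene Acvr1c, Id2, the TGF-beta receptor gene Tgfbr2 and the latency gene Ltbp3. The steepest falls were in the matrix gene Ltbp2, the BMP receptor gene Bmpr1b, Ltbp1 and the activin subunit gene Inhba. Of the 40 tested, 10 fell by at least 2-fold and 1 rose by at least 2-fold. Over all genes tested, 6.69% fell and 8.95% rose by that much. The median log2 fold change of the 40 was -0.41, beside 0.01 over all genes tested. All 3 knockout values lay below all 3 wild-type values for 26 of the 40 genes and above them for 7, against 27.3% and 27.9% of all genes tested and 55.2% for both directions. In bulk cultures such as these, fewer cells of a type and less RNA per cell cannot be told apart.

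**Figure D1:**
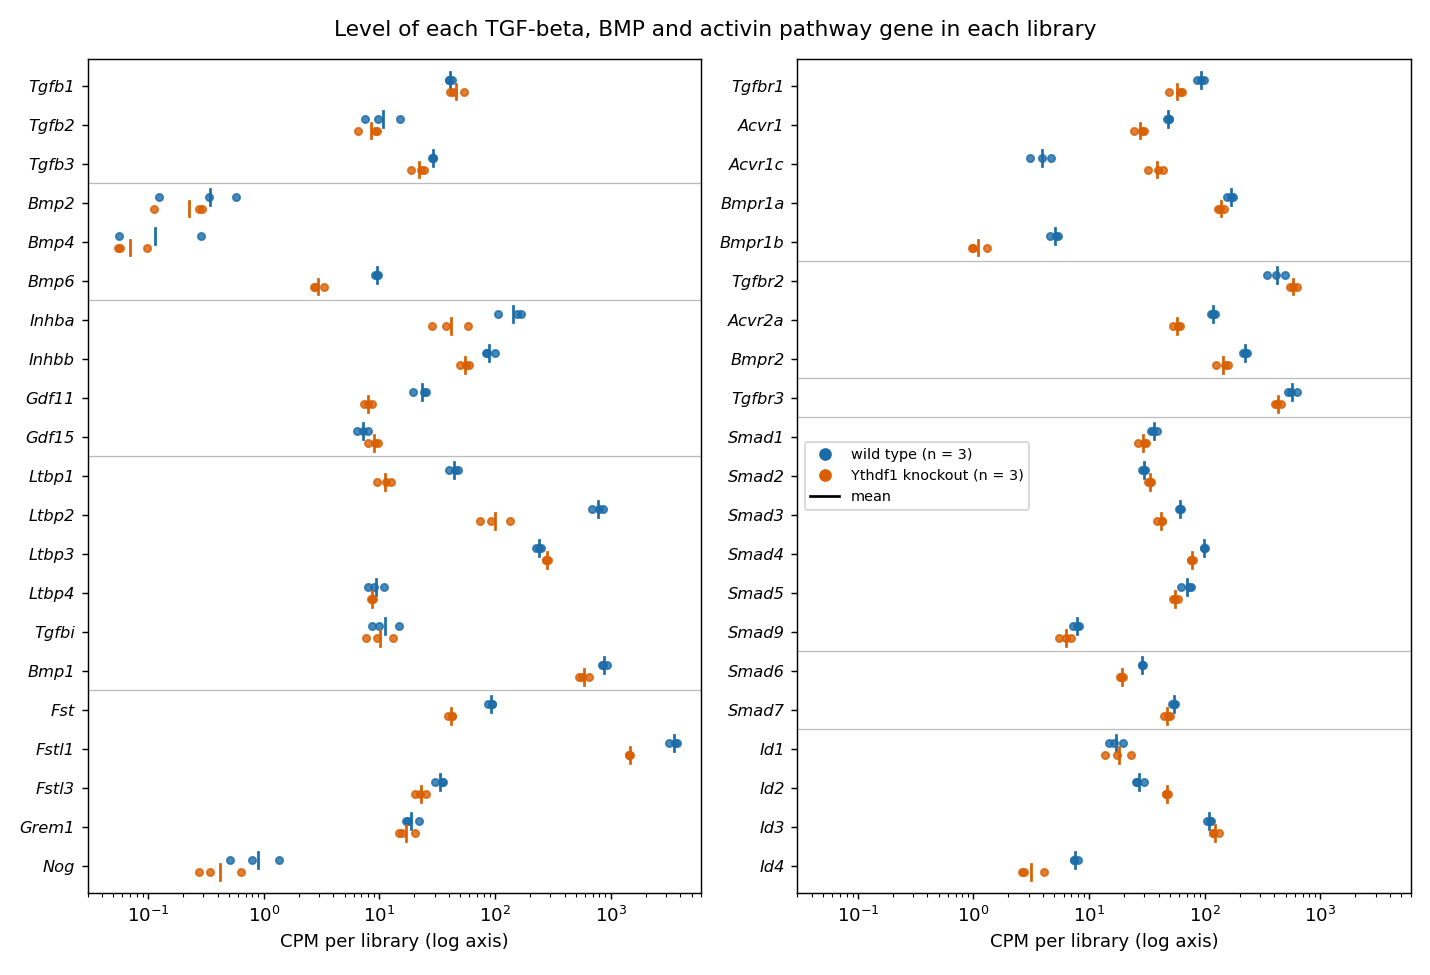
Level of each of the 42 genes in each library in CPM on a log axis, with wild type in blue, knockout in orange and a short bar at each mean; grey lines part the roles, and a library with no count is not drawn. Acvr1c stood 9.83-fold to the right in knockout, Ltbp2 was 7.77-fold to the left, and Bmp2 and Bmp4 were near the floor in both genotypes.

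The sequences upstream of 4 of these genes are shown because they carried the largest rise (Acvr1c), the largest fall (Ltbp2), the largest fall of a ligand (Inhba) and the one Id gene that rose (Id2). Each line gives the 250 bases before the first transcript start that RefSeq lists for the gene on GRCm38.p6, 5′ to 3′ on the gene's own strand. Acvr1c is at chr2:58357759-58358008 on the minus strand, Id2 at chr12:25096093-25096342 on the minus strand, Ltbp2 at chr12:84876492-84876741 on the minus strand and Inhba at chr13:16011601-16011850 on the plus strand. Capitals mark matches to any of 4 motifs, searched on both strands.
Acvr1c: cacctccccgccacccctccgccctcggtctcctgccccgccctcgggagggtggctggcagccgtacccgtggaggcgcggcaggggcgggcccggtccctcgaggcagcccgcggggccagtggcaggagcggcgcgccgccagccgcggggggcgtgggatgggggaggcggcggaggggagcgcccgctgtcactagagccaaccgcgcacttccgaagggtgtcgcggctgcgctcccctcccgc
Id2: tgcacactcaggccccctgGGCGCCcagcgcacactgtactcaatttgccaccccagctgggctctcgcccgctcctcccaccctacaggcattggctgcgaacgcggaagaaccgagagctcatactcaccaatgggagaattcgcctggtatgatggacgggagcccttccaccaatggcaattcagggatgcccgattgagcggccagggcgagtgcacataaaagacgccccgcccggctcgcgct
Ltbp2: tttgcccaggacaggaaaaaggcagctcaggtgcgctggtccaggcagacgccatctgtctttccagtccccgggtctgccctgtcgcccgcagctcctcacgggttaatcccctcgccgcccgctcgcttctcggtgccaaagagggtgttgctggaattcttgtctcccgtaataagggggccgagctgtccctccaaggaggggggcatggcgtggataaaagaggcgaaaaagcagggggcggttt
Inhba: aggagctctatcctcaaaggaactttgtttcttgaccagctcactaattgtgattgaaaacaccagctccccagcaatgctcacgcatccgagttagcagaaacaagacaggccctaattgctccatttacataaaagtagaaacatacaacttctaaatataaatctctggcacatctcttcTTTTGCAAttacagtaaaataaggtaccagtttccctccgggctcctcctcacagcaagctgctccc

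The 4 motifs were CAGACA, part of the Smad3 and Smad4 box; GGCGCC, a site of BMP Smads; TTGCNNAA, the core of a C/EBP site; and the PPAR-gamma direct repeat, bound by that factor with its partner RXR. The motifs do not overlap in these windows. The Id2 window held 1 GGCGCC, which starts 231 bases before the transcript start, and the Inhba window held 1 TTGCNNAA match starting 67 bases before it. Acvr1c and Ltbp2 held none, which says only that these letters are not in these windows. Over 27025 RefSeq genes with such a window, CAGACA occurred in 17.1%, GGCGCC in 9.54%, TTGCNNAA in 9.55% and the PPAR-gamma repeat in 0.037%. Of the 42 genes 32 had a window, of which 3, 8, 3 and 0 held the 4 motifs in that order. The windows also differed in base composition. Acvr1c held 79.6% G and C with 32 CpG steps, Inhba 43.2% with 3, and the median gene 52.0% with 6.

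Of the 3 TGF-beta ligand genes, 1 fell, where 21.7% of all genes tested fell. Tgfb1, the main form in most tissues and the most abundant of the 3 per length in the knockout libraries but below Tgfb3 in each wild-type library, was at 43.0, 40.7 and 53.7 CPM in knockout libraries and 42.8, 40.0 and 40.0 CPM in wild type. The groups overlapped, and the gene did not pass (log2 fold change 0.16 ± 0.11, adjusted p = 0.251). Tgfb2, at 8.45 ± 1.63 against 10.8 ± 3.89 CPM, did not pass either (adjusted p = 0.264), and its highest value, 15.1 CPM, was in wild-type replicate 3. Tgfb3 fell by 0.39 ± 0.11 on the log2 scale (adjusted p = 0.0152), from 28.9 ± 0.168 to 22.03 ± 3.03 CPM. The summed length-scaled level of the 3 genes, that is counts per kilobase of merged exons scaled to a common sum in each library, was 61.9 ± 3.35 in knockout libraries and 68.2 ± 4.38 in wild type.

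The 3 BMP ligand genes among the members were at low levels. Bmp6, known as a regulator of iron balance through hepcidin in the liver, was at 3.30, 2.73 and 2.78 CPM in knockout libraries and 9.78, 9.08 and 9.60 CPM in wild type. All knockout values were below all wild-type values, and the gene fell by 1.69 ± 0.17 on the log2 scale (adjusted p = 1.52e-05). The exons of Bmp6 overlap those of Txndc5, on the other strand, over 224 bases or 5.74% of their length, and Txndc5 reached 575 CPM and fell by 0.88. The strand setting of the counting is not given in the sources used here, so reads of that stretch cannot be told apart. Bmp2 had 5, 2 and 6 counts in knockout libraries and 6, 2 and 10 in wild type, and Bmp4, a classic inducer of adipocyte commitment, had 1, 1 and 2 against 1, 0 and 5. Both were too low to test, and a difference was not detectable at this depth.

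Of the 4 activin and GDF genes, 3 fell, where 21.7% of all genes tested fell. Inhba encodes the beta subunit of activin A, a factor that keeps adipocyte progenitors dividing, and had 38.0, 28.7 and 57.9 CPM in knockout against 168, 154 and 105 CPM in wild type. The groups did not overlap, although knockout replicate 3 stood above the other 2, and the log2 fold change was -1.77 ± 0.29 (adjusted p = 0.00283). With the replicate number added to the edgeR fit as a block, the adjusted p was 0.0588. Inhbb, the subunit of activin B, was at 56.5, 49.8 and 59.9 CPM in knockout libraries and 85.3, 83.4 and 99.0 CPM in wild type and fell by 0.69 ± 0.10 (adjusted p = 0.000196). With the steeper fall of Inhba, its share of the length-scaled level of the 4 activin and GDF genes went from 41.8% ± 6.50 in wild type to 24.2% ± 4.99 in knockout, while that of Inhbb was 40.1% ± 7.25 and 49.8% ± 3.21. Gdf11, a close relative of myostatin, was at 7.37, 7.90 and 8.63 CPM in knockout libraries and 25.3, 24.5 and 19.7 CPM in wild type, a fall of 1.54 ± 0.14 with well-separated groups (adjusted p = 6.04e-06). Gdf15, a stress-induced hormone that acts on a receptor in the hindbrain, was at 8.98 ± 0.885 against 7.18 ± 0.792 CPM. Its knockout values were all above the wild-type values, but it did not pass (log2 fold change 0.32, adjusted p = 0.119).

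Of the 4 latent TGF-beta binding protein genes, 2 fell steeply and 1 rose, where 21.7% of all genes tested fell and 22.6% rose. Ltbp2 is a microfibril protein that, unlike its relatives, does not bind latent TGF-beta. It was at 92.0, 74.5 and 135 CPM in knockout libraries and 866, 789.7 and 691 CPM in wild type, a 7.77-fold fall (log2 fold change -2.96 ± 0.21, adjusted p = 6.75e-06), and its highest knockout value was far below its lowest wild-type value. Ltbp1, which tethers latent TGF-beta to the matrix, was at 11.4, 12.7 and 9.55 CPM against 47.4, 40.2 and 45.4 CPM and fell 3.95-fold (log2 fold change -1.98 ± 0.12, adjusted p = 8.46e-07). Its 6 values also formed separate groups. Ltbp3, which also binds latent TGF-beta, rose by a small amount, from 238 ± 11.7 to 279 ± 5.21 CPM (log2 fold change 0.23 ± 0.09, adjusted p = 0.0475). That call held in 5 of 16 alternative settings. Ltbp4, which is partnered with elastic fibres, was at 8.64 ± 0.107 and 9.30 ± 1.44 CPM and did not pass (adjusted p = 0.605). On the length-scaled level, Ltbp3 was at 0.278 ± 0.0449 of Ltbp2 in wild type and at 2.67 ± 0.774 of it in knockout.

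A pair of other matrix genes was listed with them. Bmp1, despite its name, encodes the protease that trims procollagens and can also release latent TGF-beta complexes. On the length-scaled level it took 57.4% to 58.4% of these 6 genes in the knockout libraries, above Ltbp2. In wild type it took 40.5%, 42.4% and 46.4%, and Ltbp2 was above it in replicate 1 and level with it in replicate 2. Bmp1 was at 570.1, 537 and 656 CPM in knockout libraries and 846, 856 and 922 CPM in wild type and fell by 0.57 ± 0.11 (adjusted p = 0.00104) with separate groups. Tgfbi, a matrix protein named for its induction by TGF-beta, had a range of 7.70 to 13.2 CPM in knockout libraries and 8.57 to 14.9 CPM in wild type. It did not pass (log2 fold change -0.13, 95% interval from -0.67 to 0.40, adjusted p = 0.69).

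**Figure D2:**
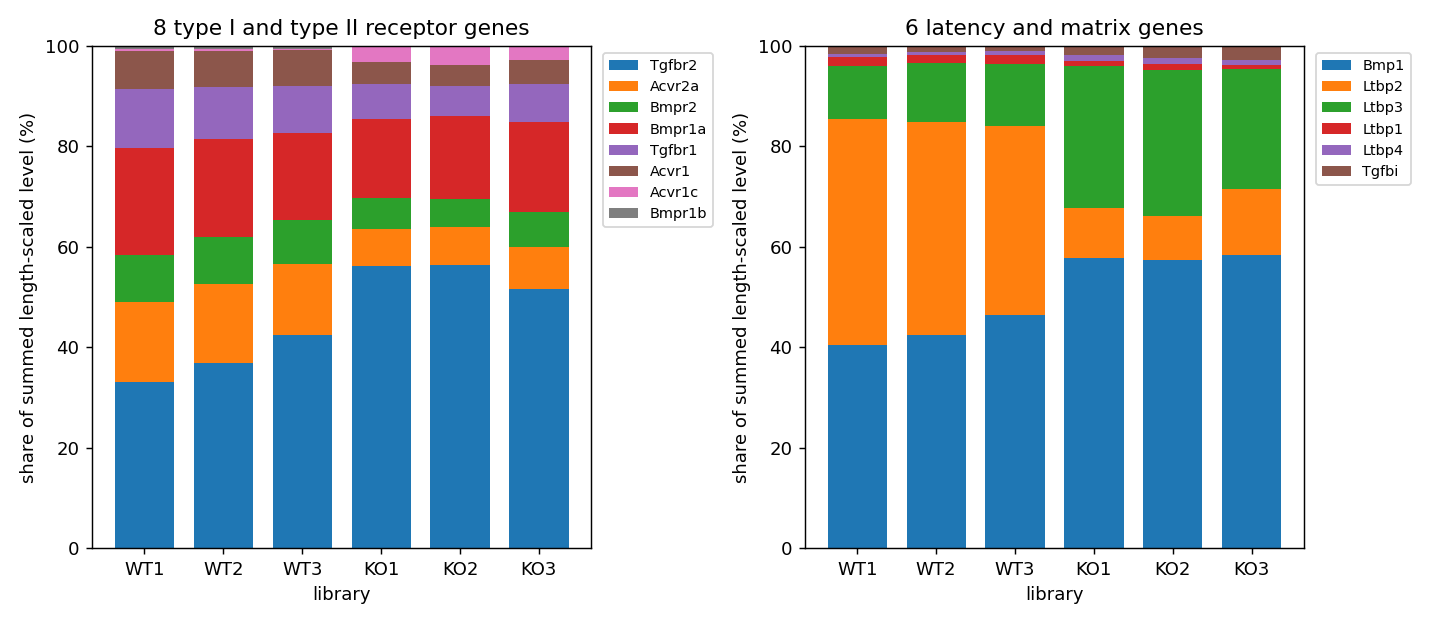
Share of each gene in the summed length-scaled level of the 8 type I and type II receptor genes among the members (left) and the 6 latency and matrix genes (right), in percent, with 1 bar per library, wild type first. Receptor genes that are no members, such as Acvr1b and Acvrl1, are not in the sum. Tgfbr2 took 33.1% to 42.5% of the receptor sum in wild type and 51.7% to 56.4% in knockout, and Ltbp2 took 37.7% to 44.9% of the other sum in wild type and 8.64% to 13.1% in knockout.

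Of the 5 genes grouped as soluble traps, 3 fell, where 21.7% of all genes tested fell. These were Fst, Fstl3 and Fstl1, and Fstl1 is not an established activin trap. Fst, which encodes follistatin, the main activin trap, was at 42.9, 42.05 and 39.1 CPM in knockout libraries and 93.5, 87.3 and 93.4 CPM in wild type, a fall of 1.14 ± 0.08 (adjusted p = 1.58e-06). Both groups were tight and far apart. Fstl3, a second activin trap, fell by 0.56 ± 0.11 (adjusted p = 0.00191) from 33.6 ± 3.10 to 22.7 ± 2.53 CPM. Its exons overlap those of Prss57 over 47.3% of their length, but Prss57 did not exceed 0.396 CPM. The sum of Inhba and Inhbb over the sum of Fst and Fstl3, on the length-scaled level, was 1.03, 0.928 and 1.23 in knockout libraries and 1.42, 1.31 and 1.13 in wild type, and these ranges overlapped.

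Fstl1 shares the follistatin domain and is a secreted glycoprotein of mesenchymal cells rather than an established activin trap. It was by far the most abundant of the 42 genes per length and stood at 1443, 1446 and 1474 CPM in knockout against 3740.1, 3626 and 3192 CPM in wild type. It fell by 1.28 ± 0.11 (adjusted p = 3.65e-06), with separate groups. The BMP antagonist genes did not pass. Grem1, which encodes gremlin, overlapped between genotypes at 17.0 ± 3.11 and 18.8 ± 2.65 CPM (log2 fold change -0.15, adjusted p = 0.457). Nog, which encodes noggin, had 5, 6 and 13 counts in knockout libraries and 9, 22 and 14 in wild type (log2 fold change -1.05 ± 0.52, adjusted p = 0.121).

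All 9 receptor genes among the members passed the test, 7 lower and 2 higher, where 21.7% of all genes tested were lower and 22.6% higher. The largest change of the pathway was here. Acvr1c (ENSMUSG00000026834, chromosome 2, 58267453 to 58357895 on the minus strand of GRCm38) encodes a type I receptor for activin B and GDF3 that is known in mouse fat as a brake on lipolysis in mature adipocytes. It was at 39.3, 43.4 and 32.5 CPM in knockout libraries and 3.11, 3.89 and 4.69 CPM in wild type. This was a 9.83-fold rise (log2 fold change 3.30 ± 0.17, adjusted p = 2.31e-07), and the lowest knockout value was far above the highest wild-type value. Knockout replicate 2, with the highest Acvr1c value, also had the highest summed adipocyte markers, and wild-type replicate 1 had the lowest of both. Whether Acvr1c follows the adipocyte content of a culture was not tested. On the length-scaled level Acvr1c rose from 0.816% ± 0.200 to 10.2% ± 2.06 of the 5 type I receptor genes listed here.

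The other 4 type I receptor genes among the members fell. Acvr1b, an activin type I receptor gene that is no member, was at 76.1 ± 5.40 and 74.96 ± 9.31 CPM (adjusted p = 0.881). Acvrl1, also a type I receptor gene and no member, was named after its values were seen. It fell by 0.57 ± 0.09 on the log2 scale (adjusted p = 0.000336), from 163 ± 12.3 to 110 ± 5.80 CPM. Bmpr1a, the most abundant per length of the type I receptor genes among the members, was at 137, 130.2 and 147 CPM in knockout libraries. In wild type it was at 175, 169.98 and 157 CPM, a small fall of 0.28 ± 0.09 (adjusted p = 0.0228). That call was lost when knockout replicate 1 or 2 or wild-type replicate 1 or 2 was left out, with adjusted p of 0.0885, 0.0508, 0.0739 and 0.0878. Bmpr1b, its relative known from cartilage and ovary, fell 4.6-fold from a low level, with 0.990, 0.966 and 1.32 CPM against 5.43, 5.13 and 4.63 CPM (log2 fold change -2.20 ± 0.25, adjusted p = 3.7e-05). Tgfbr1, the type I receptor of TGF-beta, fell by 0.67 ± 0.10 (adjusted p = 0.000359), from 92.0 ± 6.05 to 58.0 ± 7.61 CPM. Acvr1, a type I receptor that serves BMPs, fell by 0.81 ± 0.10 (adjusted p = 4.67e-05), from 48.5 ± 0.914 to 27.7 ± 2.76 CPM. For each of these 4 members the genotypes did not overlap.

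The type II receptor genes did not move together. Tgfbr2, the type II receptor of TGF-beta, was at 626, 575 and 546 CPM in knockout libraries and 348, 416 and 495 CPM in wild type and rose by 0.47 ± 0.13 (adjusted p = 0.0106). The groups were separate, with wild-type replicate 3 nearest to knockout, and without knockout replicate 1 the adjusted p was 0.0545. Acvr2a, which binds activins and some BMPs, was at 58.3, 53.2 and 61.0 CPM against 117, 123 and 113 CPM and fell by 1.03 ± 0.08 (adjusted p = 3.59e-06). Bmpr2, the BMP type II receptor, fell by 0.64 ± 0.10 (adjusted p = 0.000462), from 224 ± 8.77 to 144 ± 18.4 CPM. With Tgfbr2 higher and Tgfbr1 lower, the ratio of the 2 on the length-scaled level was 3.68 ± 0.887 in wild type and 8.11 ± 1.21 in knockout, with no overlap between the groups. Tgfbr3, betaglycan, the coreceptor that presents TGF-beta2 and inhibin, was at 452, 404 and 421 CPM in knockout libraries and 523, 558 and 630.1 CPM in wild type and fell by 0.42 ± 0.10 (adjusted p = 0.0057).

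**Figure D3:**
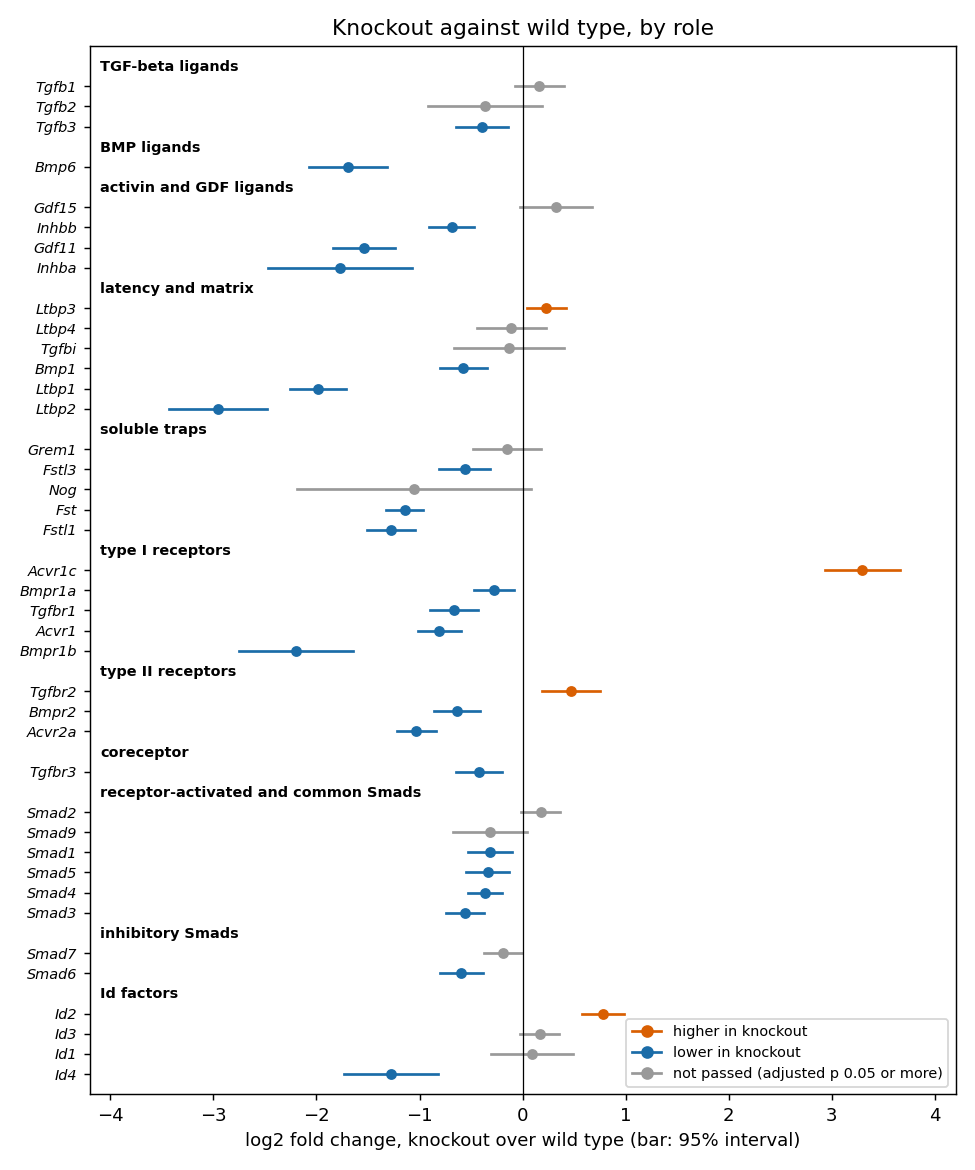
Log2 fold change of each of the 40 tested genes, knockout over wild type, with its 95% interval, grouped by role and coloured by the call. Points left of the line at 0 were lower in knockout; Acvr1c at 3.30 and Ltbp2 at -2.96 were the extremes, and the Smad genes stayed between -0.60 and 0.17.

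Of the 8 Smad genes, 5 fell and none rose, beside 21.7% lower and 22.6% higher over all genes tested. Smad4, the shared partner and the most abundant Smad gene per length, was at 76.1, 76.03 and 78.6 CPM in knockout libraries and 100.04, 98.4 and 98.0 CPM in wild type. It fell by 0.36 ± 0.07 (adjusted p = 0.00223), and the groups were tight and apart. On the TGF-beta and activin branch, Smad3 fell by 0.56 ± 0.08 (adjusted p = 0.000245), from 61.2 ± 1.31 to 41.5 ± 2.48 CPM, whereas Smad2, at 33.3 ± 0.960 against 29.5 ± 0.914 CPM, did not pass (log2 fold change 0.17, adjusted p = 0.128). On the BMP branch, Smad1 and Smad5 fell by 0.32 ± 0.10 and 0.34 ± 0.10 (adjusted p = 0.0204 and 0.0138), and Smad9, at 6.26 ± 0.746 against 7.77 ± 0.537 CPM, did not pass (adjusted p = 0.143). Each of the falls in Smad1 and Smad5 lost its call when either of 2 single libraries was left out. These libraries were knockout replicate 2 (adjusted p = 0.0593) and wild-type replicate 3 (0.0735) for Smad1, and knockout replicate 1 (0.0688) and wild-type replicate 2 (0.0773) for Smad5.

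The inhibitory Smads are themselves induced by the pathway. Smad7, which blocks TGF-beta and BMP receptors, was at 47.8, 44.4 and 49.7 CPM in knockout libraries and 55.1, 54.2 and 52.5 CPM in wild type. All knockout values were lower, but it did not pass (log2 fold change -0.19 ± 0.08, adjusted p = 0.0855); under upper-quartile scaling it did (adjusted p = 0.0325). Smad6, which acts mainly on BMP signals, fell by 0.60 ± 0.09 (adjusted p = 0.000385), from 28.8 ± 0.227 to 19.1 ± 0.663 CPM.

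The Id genes, which encode short partners that keep basic helix-loop-helix factors off DNA, did not move together. Id3, the most abundant per length, was at 118, 134 and 118 CPM in knockout libraries and 114, 105 and 110.02 CPM in wild type. Its groups were separate but near each other, and it did not pass (log2 fold change 0.16, adjusted p = 0.142). Id1, at 18.2 ± 4.70 and 17.0 ± 2.36 CPM, overlapped (adjusted p = 0.704). Id2 rose by 0.78 ± 0.09 (adjusted p = 5.12e-05), from 27.2 ± 2.43 to 46.8 ± 1.28 CPM. Id4, at 2.64, 4.03 and 2.73 CPM in knockout libraries and 7.35, 7.35 and 8.06 CPM in wild type, fell by 1.28 ± 0.21 (adjusted p = 0.000454) with separate groups. The ratio of Id2 to Id4 on the length-scaled level was 5.66 ± 0.199 in wild type and 24.4 ± 4.78 in knockout.

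Further genes of the pathway, listed from general knowledge, moved in both directions. Of 72 matched in the annotation, 49 could be tested; 22 fell, 8 rose and 19 did not pass, beside 21.7% lower and 22.6% higher over all genes tested, and the list's median was -0.28. Without wild-type replicate 2 the number that rose was 5. The 6 with the smallest p all fell. They were the ligand gene Gdf10, also called BMP3B, at 17.0 ± 0.424 against 60.3 ± 1.07 CPM, the BMP-binding regulator gene Bmper (40.5 ± 2.86 against 95.2 ± 8.69 CPM), the microfibril gene Fbn1 (log2 fold change -1.20), the integrin gene Itgb5 (-0.93), Pmepa1 (-1.28), which encodes a feedback inhibitor that binds Smads, and the microfibril gene Fbn2 (-1.58). Log2 fold changes of Gdf10 and Bmper were -1.82 and -1.23. Among the 8 that rose were the BMP antagonist gene Chrdl1 (28.9 ± 0.113 against 7.60 ± 2.84 CPM, log2 fold change 1.93) and the ligand gene Bmp3 (8.49 ± 1.46 against 2.36 ± 0.253 CPM, log2 fold change 1.85), named after their values were seen. Among the genes that store and activate TGF-beta in the matrix, 5 of 7 tested fell and none rose. Of 17 intracellular regulators, 7 were lower and 3 higher, the latter a share near that of all genes.

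The widely used TGF-beta-induced genes were mostly lower. Of 35 listed, all could be tested; 28 fell, 2 rose and 5 did not pass, beside 21.7% lower and 22.6% higher over all genes tested, with a median of -1.05 on the log2 scale. The smallest p-values belonged to the smooth muscle actin gene Acta2 (90.1 ± 12.9 against 741 ± 149 CPM), the cross-linking enzyme gene Lox (4845 ± 350 against 16384 ± 310 CPM), the matrix gene Postn (2249.5 ± 308 against 8499 ± 923 CPM) and the fibrillar collagen genes Col3a1, Col1a1 and Col1a2, with log2 fold changes of -1.27, -1.24 and -1.20. The 2 that rose were Angptl4 (1.06), which is also a known PPAR target of adipocytes, and Bhlhe40 (0.62). The list shares 6 genes with the further pathway genes above, and many of its members are matrix and contractile genes of fibroblasts, and 3 of the 5 myofibroblast markers given above, Acta2, Tagln and Cnn1, are among them. The other 2, Myh11 and Des, fell as well, with log2 fold changes of -2.09 and -1.62; their part in the result was not tested.

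BMP-induced genes outside the Id and Smad members gave 5 falls and 1 rise among 9 tested of 13, with a median log2 fold change of -0.30, beside 21.7% lower and 22.6% higher over all genes tested. With DESeq2, with no low-count filter, or without knockout replicate 1, knockout replicate 3 or wild-type replicate 3, the number that rose was 2. Among those that fell were the osteoblast genes Sp7 (-2.10), Alpl (-2.11) and Runx2 (-0.30), and Atoh8 (-0.57). The Runx2 call was lost in 5 of 16 alternatives, among them the fits without wild-type replicate 1 (adjusted p = 0.0737) or 2 (0.0518). Zfp423, a zinc finger gene that marks committed preadipocytes and strengthens BMP signals, rose by 1.24 (adjusted p = 0.000184), from 5.60 ± 1.26 to 13.2 ± 1.24 CPM.

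**Figure D4:**
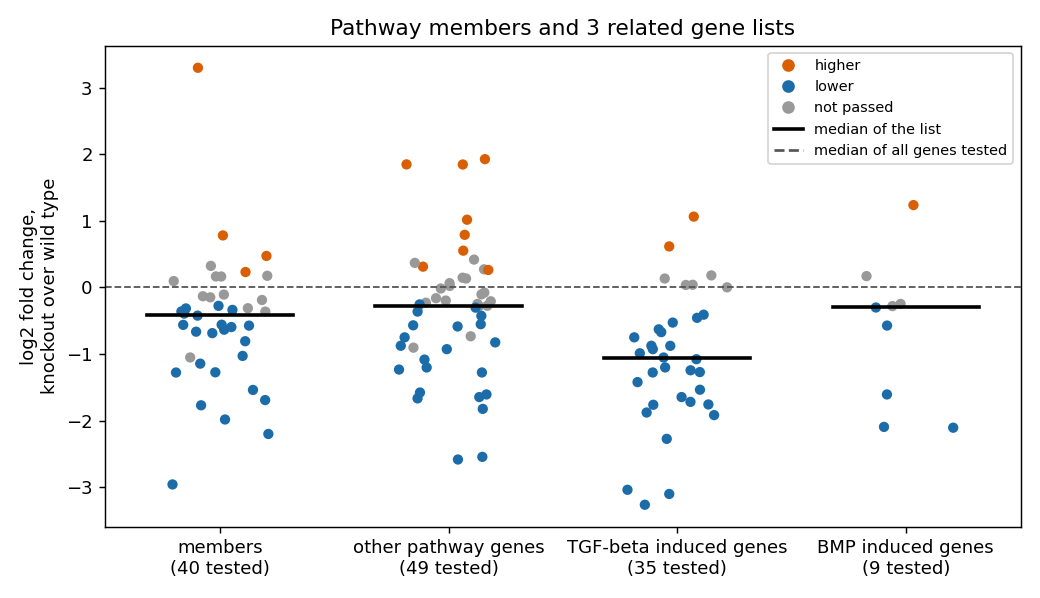
Log2 fold change of each tested gene, knockout over wild type, in the 40 pathway members, 49 further pathway genes, 35 TGF-beta-induced genes and 9 BMP-induced genes, coloured by the call, with the list median as a bar and the median of all genes tested as a dashed line. The medians were -0.41, -0.28, -1.05 and -0.30.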

How the data were processed

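Libraries from RNA without its ribosomal part were read as pairs on an Illumina instrument, per the labels' protocols. The authors deposited 1 table of unnormalized counts, with a line for each Ensembl gene and a column for each library, made with STAR and featureCounts on mm10 or GRCm38, per the submitters' processing notes. Their versions, the annotation and the strand setting were not stated. Column names are those the labels quote.

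Symbols, coordinates and merged exon lengths came from GENCODE M21 (GRCm38), which held 53706 of the 53801 identifiers; all 42 members matched. Counts were tested in edgeR 4.0.16 (R 4.3.3) with filterByExpr (minimum count 10, minimum total 15), TMM factors (0.975 to 1.02), robust legacy quasi-likelihood fits, genotype as the only term and 2-sided p-values adjusted by Benjamini-Hochberg over the 14816 genes tested. The SE was taken from the log2 fold change and the F statistic. p-values refer to the spread between the 3 replicates of each genotype, which were distinct libraries: chi-square per degree of freedom was 10.2 to 26.3 within and 160 to 242 between genotypes. The fit was also run on simulated counts with far fewer changed genes than were called here. That run checked the code only, and no result rests on it.

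The members and lists were chosen with earlier results of these data known. All members are named. Values per library are given for called members with a log2 change of at least 1, for the most abundant member per length of each role, and for members too low to test. Up to 6 called genes per list, by smallest p, are also named; Angptl4 and Bhlhe40 were named after their values were seen. One gene that the rule would name is not reported here. One listed symbol, Hjv, was not matched. Alternatives tried were DESeq2 1.42.0, limma-voom 3.58.1, factors from RLE or the upper quartile, other low-count filters, removal of the 50 most abundant genes, a block for the replicate number, a covariate for the suffix (L0 or L1) that ends each library's name, each library left out and, added after seeing the data, the L1 libraries alone.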

Additional observations from a re-analysis of the deposited data

How the results depend on the processing

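Of the 28 members called, 22 kept their call in all 16 alternatives. The exceptions were Ltbp3, Tgfbr2, Bmpr1a, Smad1, Smad5 and Inhba. Members called higher numbered 3 or 4 and members called lower 22 to 25 across the alternatives, except that without knockout replicate 1 Tgfbr2 and Ltbp3 both missed the threshold and 2 were higher. With each library left out in turn, the number higher ran from 2 to 3. Members that were not called and changed sign were Tgfbi (log2 fold change -0.37 to 0.13 with 1 library left out), Id1 (-0.11 to 0.27, and -0.14 in the L1 libraries alone) and Ltbp4 (-0.21 to 0.018, and 0.015 in the L1 libraries alone). The replicate number is not said to mark pairs. Same-numbered libraries deviated from their group means with correlations of -0.13, 0.01 and -0.14, and differently numbered ones with -0.05 to 0.15. With 3 libraries per genotype, such values cannot exclude a pairing. With the replicate block 3 members were higher and 23 lower, and Inhba missed the threshold (log2 fold change -1.80, adjusted p = 0.0588). The suffix L0 occurs once per genotype; its meaning is not stated. All 28 called members had the same sign in the L1 libraries alone and in the single L0 pair. Upper-quartile scaling shifted the median log2 fold change of all genes by -0.05. Depth limits Bmp2, Bmp4 and Nog, whose counts were at most 22 in a library.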

Other observations

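Since Ythdf1 binds m6A, the word GGACT, the DNA form of the most common m6A consensus, was counted in the longest annotated transcript of each gene, as a description with no test. The 24 members that fell held a median of 1.04 per kilobase, the 4 that rose 1.05 and the 12 that did not pass 1.08, beside 1.04 over 13115 protein-coding genes tested. The quartiles of those coding genes were 0.648 and 1.49. A match to these letters is not a methylated site.

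Within the knockout group, 21 of the 40 tested members were highest in replicate 3, and 9 and 10 were highest in replicates 1 and 2. The like share over all genes tested was not computed, so this count describes the members only. Among knockout libraries, replicate 3 had the highest macrophage (761 CPM) and myofibroblast (114 CPM) marker sums. It also had the lowest adipocyte sum (15915 CPM), and the part of these differences was not tested. Ltbp2 and Inhba were both among those highest in replicate 3. Without that library the log2 fold change of Ltbp2 was -3.23 and that of Inhba -2.09, each further from 0 than with all libraries. Nrros, which encodes a protein that holds latent TGF-beta on macrophages and microglia, was at 3.46 ± 2.03 CPM in knockout libraries and 0.974 ± 0.683 CPM in wild type and rose by 1.85 on the log2 scale (edgeR adjusted p = 0.0178). Lrrc32, which does the same on other cells, fell by 1.67 (edgeR adjusted p = 2.96e-05), from 763 ± 66.4 to 240.3 ± 62.2 CPM. These genes were chosen after their values were seen.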
